A study of Homo sapiens with 4 samples.

Results

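Mitochondrial carriers are the proteins that pass nucleotides, phosphate, carboxylates, amino acids, cofactors and metal ions across the inner mitochondrial membrane. The set was chosen by gene name. It holds every gene listed as SLC25A with a number in the deposited count table, except SLC25A20. The uncoupling proteins UCP2 and UCP3 and the pyruvate carrier subunits MPC1 and MPC2 were added. Carriers listed under other names, such as UCP1, are not in the set. The set came to 51 of the 56832 genes in the table, and 45 of these reached a mean normalised read count of at least 10 over the 4 libraries. RNA was sequenced from A375, an established human melanoma line labelled as wild type and grown in DMEM with 10% FBS. The vehicle group received isopropanol and the octanoate group 1 mM octanoate, a medium-chain fatty acid, both for 48 h in 100 mm plates. Each group held 2 libraries. The labels do not say whether these came from separate cultures, so the p-values speak only for the libraries at hand. They rest on each gene's spread between libraries, drawn towards that of genes of similar level.

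Most SLC25 proteins share a fold built of repeated pairs of membrane helices and work by exchanging a solute on the matrix side for another on the cytosolic side. They are made in the cytosol and are inserted into the inner membrane by the TOM and TIM complexes. Through them the respiratory chain obtains ADP and phosphate, the citric acid cycle exchanges acids with the cytosol, and the matrix receives iron and coenzyme A. MPC1 and MPC2 belong to a separate protein family, SLC25A17 is a peroxisomal member and SLC25A46 sits in the outer membrane.

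RefSeq promoter windows (GRCh38.p14, 250 bases before to 50 bases after a start) were found for 38 of the 45 carriers, 50 windows in all. They were read for short motifs of factors known to act on mitochondrial, stress-response or housekeeping genes. The letters GGGCGG, the core of a GC box, were searched on both strands and chosen after the data had been seen. They occurred in 34 of the 50 carrier windows and in 44.95% of all 35116 windows of the same length. The carrier windows had a median GC content of 67.5%, against 58.7% for all windows. By call, 6 of the 8 carriers that fell held a match, as did 5 of the 5 that rose and had a window, and 18 of the 25 that were not called. SLC25A38 and SLC25A42 fell and had none. A match is a description of these letters only. The lines below show stretches of 30 bases upstream of the RefSeq start, each 5′ to 3′ on the gene's strand, with the match in capitals. The first 3 belong to amino acid carriers that fell, the next pair to carriers that rose, and the last to SLC25A11, which was not called.
SLC25A44, chr1:156194054-156194083, plus strand: gccccctgcaggGGGCGGtaatgacagagt
SLC25A13, chr7:96322127-96322156, minus strand: ggcccagccaatGGGCGGgcagcatccaca
SLC25A29, chr14:100306476-100306505, minus strand: ggcaggcacgagGGGCGGggcgcgcggccc
SLC25A45, chr11:65382675-65382704, minus strand: tcagaggagaatGGGCGGcaccctgtggct
SLC25A43, chrX:119399303-119399332, plus strand: ccgccccatgccGGGCGGggcctggggccc
SLC25A11, chr17:4940099-4940128, minus strand: ttctcgcacgcTTCCATCAagctcctcctt

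The SLC25A11 line shows the only carrier match to TGATGNAA, a motif of the ATF4 and CEBP kind, which occurred in 3.62% of all windows. TCAAGGTCA, bound by the estrogen-related receptors, occurred in 0.35% of all windows and CGCATGCG, the NRF1 core, in 2.02%, and neither was found in a carrier window.

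Recovered reads per library lay between 67785956 and 78005035. The melanoma markers SOX10 (34072 to 41363 normalised counts) and MITF were present. MITF counted 3533 and 3330 under vehicle and 2414 and 2511 under octanoate. AXL counted 23437 and 22061 under vehicle and 30450 and 30298 under octanoate, and NGFR 11444 and 10653 against 7401 and 6899. SOX9 lay between 67.7 and 88.9. Of the pigment genes, PMEL counted 65.8 and 65.9 under vehicle and 98.2 and 95.4 under octanoate. MLANA and DCT stayed at or below 52.0 and TYR at or below 3.93 in every library. Of the markers of other cell types, PTPRC and CD3E of leukocytes stayed at or below 10.8, EPCAM lay between 29.1 and 31.8, and none of the 8 was at 0 in every library. The endothelial gene PECAM1 counted 121 and 122 under vehicle and 249 and 221 under octanoate, and the fibroblast gene COL1A1 394 and 393 against 228 and 259. KRT8 lay between 3157 and 3859, VWF between 63.9 and 95.4 and DCN between 114 and 161. The part of these in the carrier results was not tested. In bulk RNA, fewer cells of a kind and less RNA per cell cannot be told apart.

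Under octanoate 16 of the 45 carriers were called (35.6%), 8 higher and 8 lower, at an adjusted p under 0.05 (limma, two-sided, Benjamini-Hochberg over 20250 genes). Of all genes tested, 29.9% were called, 16.2% higher and 13.7% lower, so the family's share lay near that of the table. The groups did not overlap for 31 carriers (68.9%), against 63.1% of all genes. The amino acid carriers that were called all fell (4 of 8 tested), and those of the nucleotide class, the metal and glutathione class and the class with unsettled substrates all rose (2 of 8, 1 of 4 and 2 of 6). The remaining classes held calls in both directions. Of the nucleotide calls, that of SLC25A41 came from a gene that passed the count minimum only through its octanoate libraries. Of the 29 carriers with a mean of at least 1000, 9 were called (31.0%), 3 higher and 6 lower. Of the 9003 genes at that level 38.1% were called, 1630 higher and 1801 lower.

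**Figure D1:**
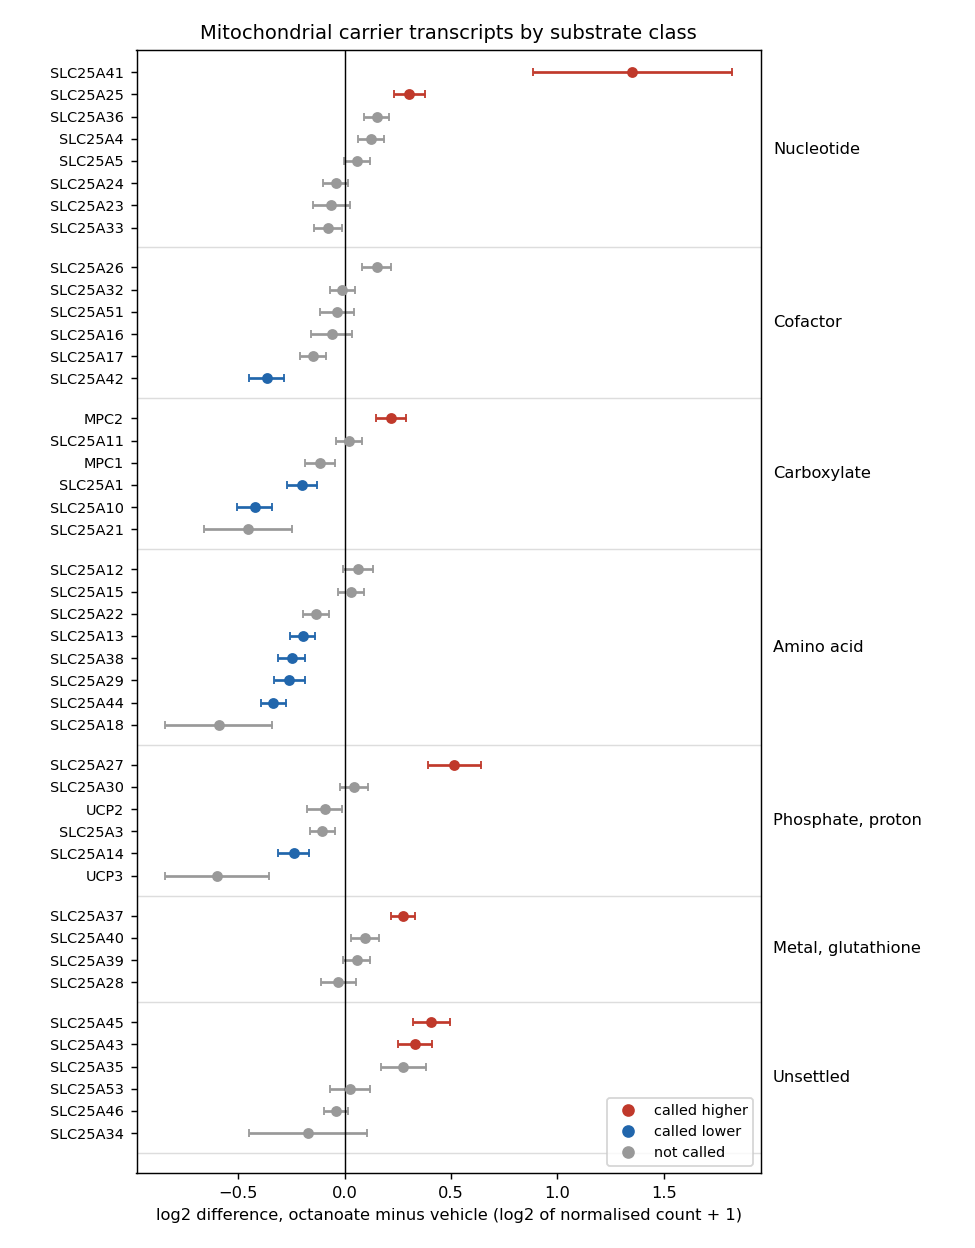
Log2 difference of the tested carriers (octanoate minus vehicle, on log2 of the normalised count plus 1), grouped by substrate class, with bars of 1 standard error. Coloured points are called carriers, and the coloured points of the amino acid class all lie below 0.

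The differences were small. The median log2 difference was -0.03 over the carriers and 0.01 over all genes, and the median size without its sign was 0.15 and 0.19. The carriers ranged from -0.60 for UCP3, which was not called, to 1.35 for SLC25A41. Without octanoate 2 the carriers' median became 0.03. The summed count of all carriers was 204150 and 194700 under vehicle and 198730 and 194490 under octanoate, so the groups overlapped in that sum. SLC25A3 and SLC25A5 together held between 43.3% and 44.3% of it. As a share of all counts in a library, the carriers held 0.27038% and 0.26921% under vehicle. Under octanoate they held 0.26468% and 0.26475%, so the groups did not overlap in that share.

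**Figure D2:**
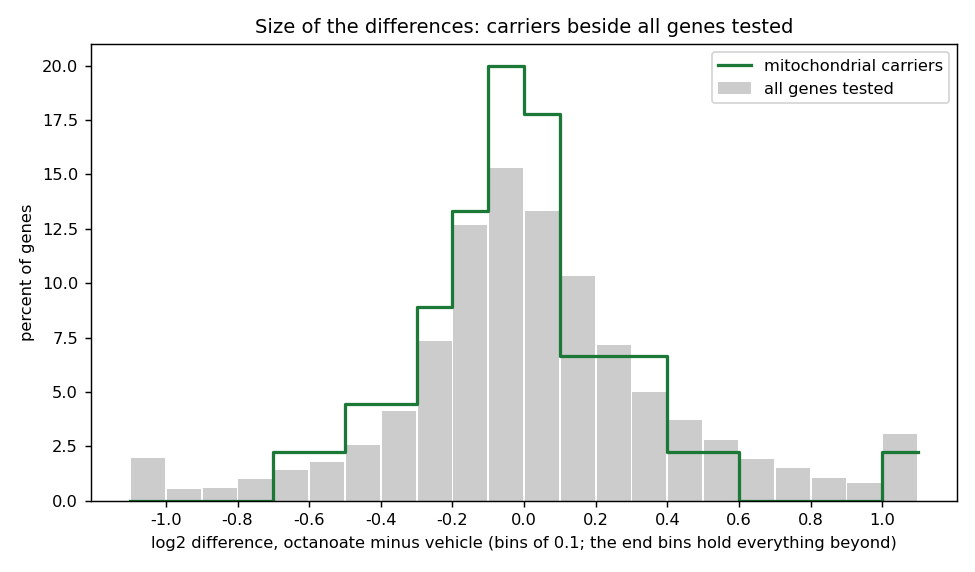
Percent of genes in bins of 0.1 of the log2 difference (octanoate minus vehicle) for the 45 carriers (line) and all 20250 genes tested (bars), with the end bins holding all values beyond. Both peak in the bins next to 0, and SLC25A41 alone lies in the top bin of the carriers.

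Per kilobase of GENCODE 29 exon length, the ADP/ATP carrier SLC25A5 had the highest level (26980 normalised counts per kilobase), followed by the phosphate carrier SLC25A3 (5174), the citrate carrier SLC25A1 (3061), the oxoglutarate carrier SLC25A11 (2718) and the glutathione carrier SLC25A39 (1912). The lowest tested level was that of SLC25A41 (7.78). Of these 6 genes, SLC25A1 and SLC25A41 were called. The exon length used merges the exons of all annotated transcripts of a gene, 8896 bases for SLC25A3 and 1500 for SLC25A5. Their mean normalised counts were 46029 and 40470, so their order per kilobase depends on that length.

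The 6 carriers under the count minimum were SLC25A2, SLC25A6, SLC25A31, SLC25A47, SLC25A48 and SLC25A52, none with more than 5 reads in any library. SLC25A41, with a mean of 12.8, was the member just inside the minimum and SLC25A48, with 3.22, the member just outside. SLC25A41 had a mean of 6.82 under vehicle and 18.8 under octanoate, so it passed only through the octanoate libraries. SLC25A6, a further ADP/ATP carrier, was listed at 0 in all 4 libraries. It lies in a region that GENCODE 29 gives on both X and Y, and 16 of 18 protein-coding genes so placed were at 0 in every library, while CD99 and SPRY3 had a positive value in 1 library each. The 0 of SLC25A6 is therefore not a measure of its expression.

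Among the amino acid carriers, 4 of 8 tested members fell and none rose, with a median log2 difference of -0.22. SLC25A44, the carrier of branched-chain amino acids (chr1:156193932-156212796), counted 5647 and 5362 under vehicle and 4382 and 4334 under octanoate. Both octanoate libraries lay below both vehicle libraries, and the gene fell by 0.34 on the log2 scale (standard error 0.06, adjusted p = 9.7e-05). SLC25A38, the glycine carrier that serves heme synthesis (chr3:39383324-39397351), counted 3179 and 3061 under vehicle and 2707 and 2546 under octanoate. Again the groups did not overlap, with a difference of -0.25 (0.06, adjusted p = 0.00401). SLC25A29, a carrier of basic amino acids (chr14:100291111-100306547), counted 1724 and 1618 under vehicle and 1459 and 1333 under octanoate. All octanoate values were the lower ones and the difference was -0.26 (0.07, adjusted p = 0.00811). SLC25A13, or citrin, the aspartate/glutamate carrier of the malate-aspartate shuttle (chr7:96120220-96322147), had the highest mean of the class and counted 6037.5 and 6036.8 under vehicle and 5177 and 5356 under octanoate. Its vehicle libraries were nearly equal and both octanoate libraries lay lower, at -0.20 (0.06, adjusted p = 0.0110).

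The other 4 amino acid carriers were not called. The glutamate carriers SLC25A18 and SLC25A22 had log2 differences of -0.59 and -0.13, and neither overlapped between the groups. The second aspartate/glutamate carrier SLC25A12 (0.06) and the ornithine carrier SLC25A15 (0.03) overlapped. The summed count of the class was 25651 and 24920 under vehicle and 22590 and 22066 under octanoate, with no overlap. SLC25A44 was called whichever library was left out. SLC25A38 and SLC25A29 were not called without vehicle 1 (-0.22 and -0.21) or without octanoate 2 (-0.20 and -0.19), and SLC25A13 was called only without octanoate 2, with -0.20 and -0.20 without vehicle 1 or vehicle 2 and -0.17 without octanoate 1. SLC25A38 shares 847 bases at 96.7% identity with the pseudogene SLC25A38P1, so its reads may be split.

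In the carboxylate class 1 of 6 members rose and 2 fell. The class median was -0.16, and it lay between -0.08 (without vehicle 1) and -0.24 (without vehicle 2) when a library was left out. SLC25A10, the dicarboxylate carrier that exchanges malate and succinate for phosphate (chr17:81712236-81721016), counted 930.5 and 871 under vehicle and 678 and 664 under octanoate. Its groups were far apart relative to their spread, and it fell by 0.42 (0.08, adjusted p = 0.000321). SLC25A1, the citrate carrier that exports citrate for fatty acid synthesis (chr22:19175575-19178830), counted 7425 and 6309 under vehicle and 6262 and 5664 under octanoate. The lower vehicle library and the higher octanoate library nearly met, and the difference was -0.20 (0.07, adjusted p = 0.0315). MPC2, a subunit of the pyruvate carrier (chr1:167916729-167937040), counted 1667 and 1602.5 under vehicle and 2000.2 and 1808 under octanoate. Both octanoate libraries were the higher ones, at 0.22 (0.07, adjusted p = 0.0209).

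Its partner subunit MPC1 was not called (-0.12), nor was the oxodicarboxylate carrier SLC25A21 (-0.45). SLC25A11, the oxoglutarate/malate carrier with the highest mean of the class, counted 7542 and 6859 under vehicle and 7654 and 6958 under octanoate. These values interleaved, with a difference of 0.02 (0.06, adjusted p = 0.841). SLC25A1 was not called without vehicle 1 (-0.08) or octanoate 2 (-0.13), and MPC2 not without vehicle 1 (0.25), vehicle 2 (0.19) or octanoate 1 (0.15). SLC25A10 shares 46.6% of its exon length with AC139530.2 on the same strand, so strand does not assign reads from that stretch to either gene. MPC2 shares 22.5% with DCAF6 on the other strand, so reads from there cannot be assigned where counting ignored strand.

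Among the cofactor carriers SLC25A42 fell. This gene, whose product carries coenzyme A and adenine nucleotides (chr19:19063999-19112888), counted 786 and 815 under vehicle and 631 and 610.1 under octanoate. The vehicle libraries were both higher, and the gene fell by 0.37 (0.08, adjusted p = 0.00164). The call held whichever library was left out.

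SLC25A32, the folate and FAD carrier with the highest mean of the class, counted 5610 and 5564 under vehicle and 5665 and 5432 under octanoate. The groups overlapped, with a difference of -0.01 (0.06, adjusted p = 0.918), and 69.7% of its exon length is shared with AC012213.5. Further members were the S-adenosylmethionine carrier SLC25A26 (0.15), the peroxisomal SLC25A17 (-0.15), the NAD carrier SLC25A51 (-0.03) and SLC25A16 (-0.06), none of them called. The class median was -0.03, and it lay between -0.01 (without octanoate 2) and -0.05 (without octanoate 1) when a library was left out, with -0.02 without vehicle 2.

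In the metal and glutathione class SLC25A37 was the called member among 4. This gene on chromosome 8 encodes mitoferrin-1, an iron importer, and counted 4868 and 4902 under vehicle and 5798 and 6027 under octanoate. The octanoate libraries stood apart from the closely matched vehicle libraries, and it rose by 0.27 (0.06, adjusted p = 0.000731), whichever library was left out. SLC25A39, a glutathione carrier with the highest mean of the class, counted 6944 and 6278 under vehicle and 7155 and 6591 under octanoate. Its groups overlapped and its difference was 0.06 (0.06, adjusted p = 0.544). Mitoferrin-2, SLC25A28, had -0.03 and the second glutathione carrier SLC25A40 0.09, neither called. The class median was 0.08. It was 0.04 without vehicle 2, and 0.01 with trends on GC content and length removed. Its summed count was 15165 and 14497 under vehicle and 16397 and 16109 under octanoate, without overlap. SLC25A37 is part of that sum, which therefore partly repeats its call. Class sums also did not overlap for the amino acid, nucleotide, phosphate and proton, and unsettled carriers. Those of the carboxylate and cofactor carriers overlapped.

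Of 8 tested nucleotide carriers 2 rose and none fell. Both belong to the ATP-Mg/phosphate carriers, which set the adenine nucleotide content of the matrix. SLC25A25 (chr9:128068201-128109245) counted 2109 and 1850.5 under vehicle and 2579 and 2308 under octanoate. Both octanoate libraries exceeded both vehicle libraries, by 0.30 (0.07, adjusted p = 0.00267). SLC25A41 (chr19:6426037-6433779) counted 5.89 and 7.75 under vehicle and 19.3 and 18.4 under octanoate, from 6 to 20 reads a library. The groups were apart, at 1.35 on the log2 scale (0.47, adjusted p = 0.0317), with the widest error of all called carriers. SLC25A41 was tested only because its octanoate counts lifted its mean over the minimum, so its rise is no support for the class. SLC25A25 was not called without vehicle 2 (0.21), and SLC25A41 not without vehicle 1 (1.18), octanoate 1 (1.32) or octanoate 2 (1.38). The antisense gene SLC25A25-AS1 covers 13.5% of the exon length of SLC25A25.

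The other ATP-Mg/phosphate carriers SLC25A23 (-0.06) and SLC25A24 (-0.04) were not called. SLC25A5, the ADP/ATP carrier with the highest mean of the class, counted 41159 and 38181 under vehicle and 41839 and 40703 under octanoate. These overlapped, at 0.06 (0.06, adjusted p = 0.511). Its paralog SLC25A4, the form known from heart and muscle, had 0.12. The pyrimidine nucleotide carriers SLC25A36 and SLC25A33 had 0.15 and -0.08, and neither was called. The class median was 0.09, and 0.03 without vehicle 2.

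In the phosphate and proton class 1 of 6 members rose and 1 fell. Both are relatives of the uncoupling proteins known from brain. SLC25A27, or UCP4 (chr6:46652915-46678193), counted 287 and 338 under vehicle and 383 and 517 under octanoate. The octanoate libraries were the higher ones but lay far from each other, and the difference was 0.51 (0.12, adjusted p = 0.00278). SLC25A14, or UCP5 (chrX:130339888-130373361), counted 1514 and 1408 under vehicle and 1225 and 1247 under octanoate. Its groups did not overlap, at -0.24 (0.07, adjusted p = 0.0138). SLC25A27 was not called without vehicle 1 (0.40) or octanoate 2 (0.30), and SLC25A14 not without vehicle 1 (-0.19) or octanoate 1 (-0.23).

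SLC25A3, which imports phosphate for ATP synthesis and has the highest count of the family, counted 49322 and 46092 under vehicle and 44396 and 44306 under octanoate. Both octanoate libraries were lower, but the gene was not called (-0.10, standard error 0.06, adjusted p = 0.200). UCP3 (-0.60), with counts from 35.6 to 76.5, UCP2 (-0.09) and SLC25A30 (0.05) were not called either. The class median of -0.10 ranged from -0.05 to -0.15 when a library was left out.

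Of the 6 tested carriers grouped as having unsettled substrates 2 rose and none fell. SLC25A45 (chr11:65375192-65383701) counted 564 and 563 under vehicle and 757 and 740.2 under octanoate. Replicates were close and the groups apart, at 0.41 (0.09, adjusted p = 0.000681). SLC25A43 (chrX:119399060-119454478) counted 729 and 749 under vehicle and 924 and 933 under octanoate. It showed the same arrangement, at 0.33 (0.08, adjusted p = 0.00270). Both calls held whichever library was left out. SLC25A46, the outer membrane protein of the class with its highest mean, counted 7332 and 7545 under vehicle and 7275 and 7204 under octanoate. Its octanoate values were the lower ones by a small margin (-0.04, standard error 0.06, adjusted p = 0.656). SLC25A35 (0.28), SLC25A34 (-0.17) and SLC25A53 (0.03) were not called. The class median was 0.15. It was 0.28 with a count minimum of 50, which dropped SLC25A34, and 0.09 without vehicle 1.

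**Figure D3:**
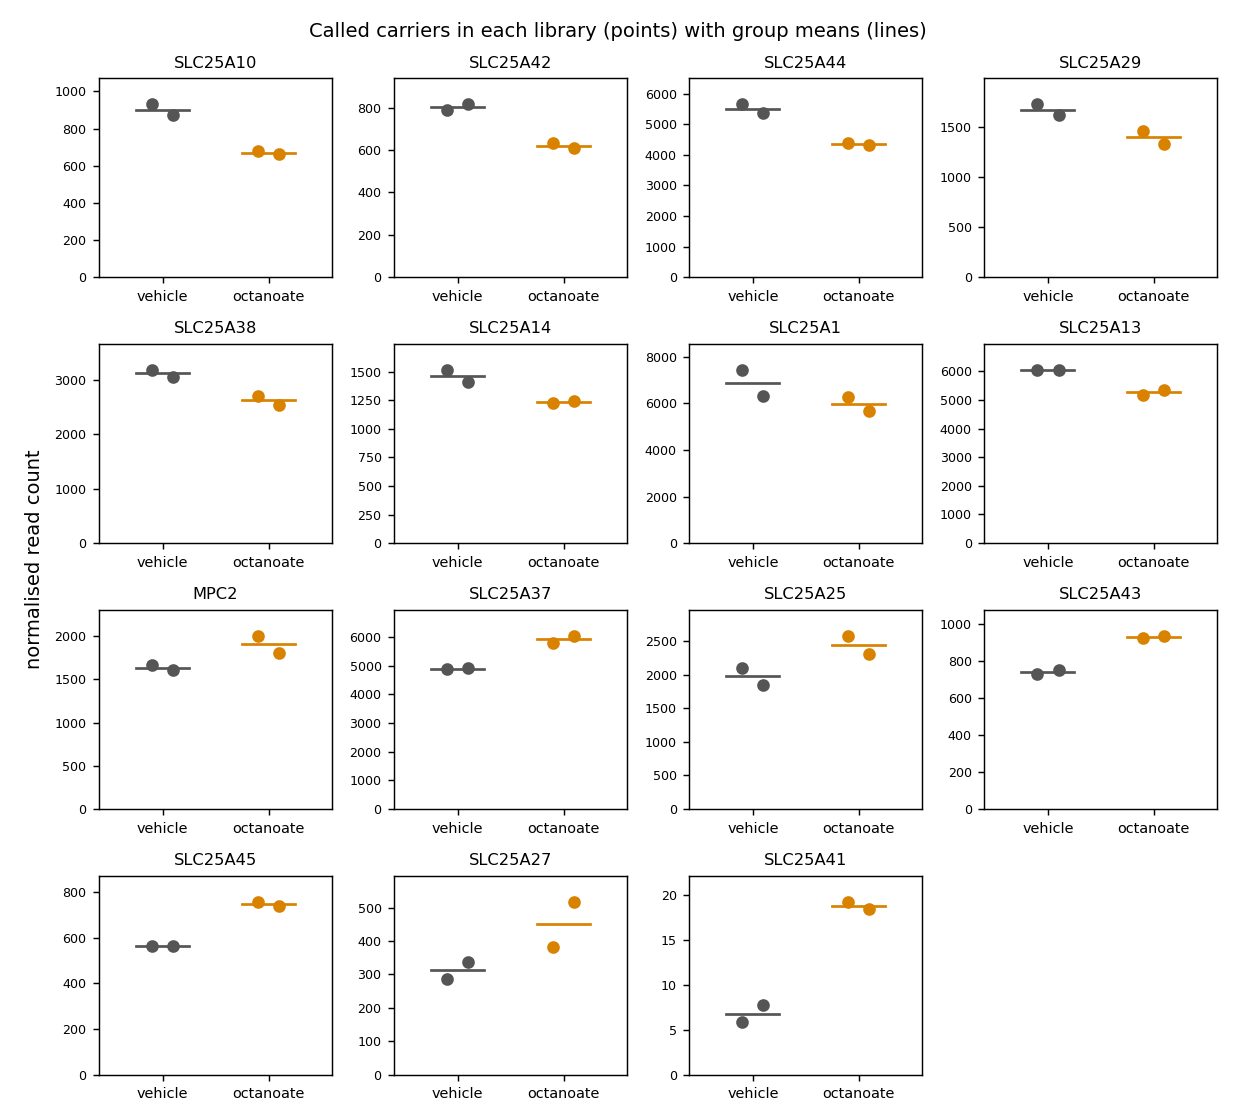
Normalised read count of the called carriers described here in each library (points, 2 per group) with the group mean (line), each axis starting at 0. In every panel the groups are separate, most narrowly for SLC25A1, with 6309 in the lower vehicle library and 6262 in the higher octanoate library.

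Partner subunits and related carriers were also set against each other as ratios within a library. The ratio of MPC2 to MPC1 was 1.13 and 1.16 under vehicle and 1.50 and 1.38 under octanoate. That of SLC25A13 to SLC25A12 was 3.65 and 3.57 under vehicle and 2.83 and 3.22 under octanoate. Mitoferrin-1 exceeded mitoferrin-2 by 4.33 and 4.55 times under vehicle and by 4.98 and 6.04 times under octanoate. The groups did not overlap for any of these, nor for SLC25A25 to SLC25A24, SLC25A36 to SLC25A33, SLC25A5 to SLC25A4 and SLC25A10 to SLC25A11. The ratio of SLC25A40 to SLC25A39 overlapped. No share over other gene pairs was computed, and 63.1% of single genes did not overlap. MPC2, SLC25A13, SLC25A37, SLC25A25 and SLC25A10 were themselves called, so their ratios partly repeat those calls. With 2 libraries against 2, an exact permutation test cannot give a two-sided p below 0.333, the value of the 7 pairs without overlap (0.381 after adjustment over 8 pairs).

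The other genes of the pathway give the setting for these values. Of 15 tested genes of carrier import, the TOM and TIM subunits and AGK, none was called higher and 3 lower (20%). Of all genes, 29.9% were called in either direction and 13.7% lower. All tested import genes except TOMM5 (337) had a mean of at least 1000. Of the 9003 genes at that level 38.1% were called, 1630 higher and 1801 lower, so the 20% is no excess of falls. TOMM40, the pore of the outer membrane, counted 12607 and 10786 under vehicle and 10338 and 9212 under octanoate. Its groups did not overlap, at -0.26 (0.07, adjusted p = 0.00616). The small TIM protein TIMM10B (-0.28) and the receptor TOMM22 (-0.17) fell too, and the import pore TIMM22 of the carriers was not called (-0.09). None of the 3 calls held without vehicle 1, where the values were -0.14, -0.23 and -0.13 in the order above. Without octanoate 2 TOMM40 (-0.17), TIMM10B (-0.19) and TOMM22 (-0.16) were not called either, nor was TOMM22 without octanoate 1 (-0.18). TOMM6 was listed at 0, and all of its exons lie within AL365205.1 in GENCODE 29.

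Of 20 other genes of mitochondrial membrane transport 3 rose and 6 fell (45%). Of all genes 29.9% were called, and 38.1% of those with a mean of at least 1000. VDAC3, a channel of the outer membrane, counted 10054 and 9446 under vehicle and 7694 and 7434 under octanoate. Both octanoate libraries were clearly lower, at -0.37 (0.06, adjusted p = 2.75e-05), while VDAC1 (-0.02) and VDAC2 were not called. SLC8B1, the sodium/calcium exchanger of the inner membrane, counted 705 and 663 under vehicle and 910 and 898 under octanoate. It rose by 0.40 (0.08, adjusted p = 0.000508), and its groups were apart. The sideroflexin SFXN5 fell by 0.34, from 1484 and 1409 to 1175 and 1117. The called genes also held SFXN2, SFXN3, MTCH2 and ABCB10, which fell, and SFXN4, which rose. The number called was 5 without vehicle 1 and 5 without octanoate 2.

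SLC25A20, the carnitine/acylcarnitine carrier left out of the set, counted 1887 and 1758 under vehicle and 2714 and 2758 under octanoate, and rose by 0.59 (0.07, adjusted p = 1.91e-07). That is a larger log2 difference than that of any called carrier of the set except SLC25A41.

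The authors' deposited table gave an adjusted p under 0.05 for 13 of the 45 carriers. All were among the 16 and had the same sign. Over its 33533 genes the share was 12.9%. That base includes genes under the mean of 10 that the 45 carriers passed, so the shares are not alike. In the authors' deposited table SLC25A1 had an adjusted p of 0.0508, MPC2 of 0.0537 and SLC25A41 of 1. On reads recovered from the normalised values, edgeR called 19 carriers, 9 higher and 10 lower, among 32% of all genes, and DESeq2 15 of 44, 7 higher and 8 lower, among 27.5%. All 16 were among the calls of edgeR, and the 15 of DESeq2 were the 16 without SLC25A41, which it gave no adjusted p.

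How firmly each call stood was read over 16 other settings. SLC25A45 was called in all of them, and SLC25A37, SLC25A43, SLC25A10, SLC25A42 and SLC25A44 in all but the fit without an intensity trend in the variance prior. That fit called SLC25A45 and SLC25A41 only, among 8.02% of all genes. With no count minimum 7 carriers were called, among 5.97%. Leaving out vehicle 1 left 8. Of all calls, 54.1% were higher. Testing only the 15185 genes found in GENCODE 29 gave 52.6%, with 9 carriers called higher and 8 lower. Removing trends on GC content and length from the same genes gave 42.5%, with 10 carriers called higher and 13 lower.

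**Figure D4:**
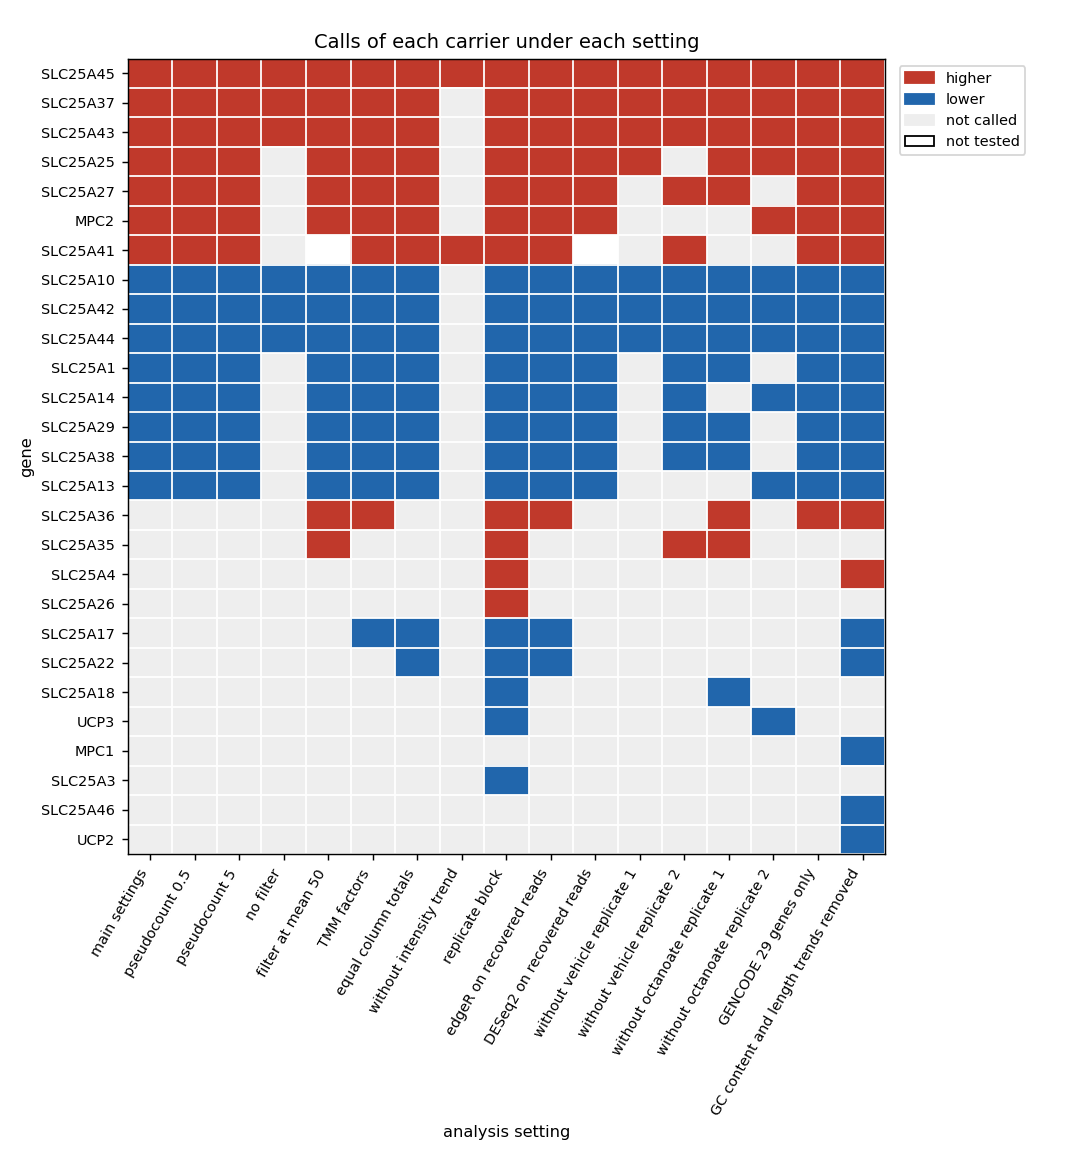
Calls of carriers (rows) under each analysis setting (columns), coloured by direction, for carriers called in at least 1 setting. No call changes colour along a row, and SLC25A45 is coloured in every column.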

How the data were processed

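The signal per gene and library was deposited as counts the authors had normalised, per the table's name with DESeq2. Per the submitters' processing notes, which give neither role nor order, the build was hg38 and the tools were bcl2fastq 2.17, Trim Galore, STAR 2.4, Picard, HTSeq 0.9.1 and DESeq2. Annotation and strand setting are not given in the sources used here. A second deposited table holds the authors' log2 fold changes with standard errors, test scores, p-values and adjusted p-values. It was used for comparison only.

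All 4 libraries entered limma 3.58.1 (R 4.3.3) with an intensity trend, on log2(normalised count + 1), for the 20250 genes with a mean of at least 10. Two-sided p-values were adjusted by Benjamini-Hochberg over these genes, and genes under 0.05 were called. Differences are octanoate minus vehicle, with their standard error, and understate changes of low counts. The standard errors use a variance drawn towards the intensity trend (prior of 21.2 degrees of freedom). They are therefore not each gene's own spread alone. The deposited values were whole multiples of 1 step for 100% of values in each library (tolerance 0.01), and the reads recovered from them went to edgeR 4.0.16 and DESeq2 1.42.0. The fit was tested on simulated data, but the outcome is not given here, so nothing is drawn from it.

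Substrate classes and the context lists came from general knowledge. Members and lists were chosen with earlier results of these data known. Values per library are given for every called carrier, the highest member of each class and the leading context genes (the 3 of smallest p in each list are named with their differences). GENCODE 29 gave loci, exon lengths and overlaps, and blastn 2.17.0 shared sequence (at least 95% over 100 bases). Replicate numbers have no stated meaning, so the reported fit has no block; a block was tried as an alternative. The fits on GENCODE 29 genes and with GC and length trends removed, and the GGGCGG search, were added after the data were seen. Some genes counted in the totals are not reported here by name or in the figures.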

Additional observations from a re-analysis of the deposited data

How the results depend on the processing

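Against 16 called carriers (8 higher, 8 lower), no count minimum gave 7 (4 and 3), no intensity trend 2 (2 and 0) and the replicate block 25 (12 and 13), which held all 16. Leaving out 1 library gave 8 to 15 (5 to 8 higher, 3 to 7 lower), the least without vehicle 1. With GC and length trends removed 13 were called lower. No call changed direction under any setting. Of the carriers that were not called, only those with the highest mean of their class were followed for direction. Among these, SLC25A11, SLC25A32, SLC25A39 and SLC25A5 crossed 0 under some settings. Their ranges were -0.06 to 0.09, -0.04 to 0.02, -0.02 to 0.13 and -0.00441 to 0.11, in that order. Of 3 called carrier import genes, no minimum and no trend left 0, equal column totals gave 6, the replicate block 8, edgeR 5, DESeq2 5, GC and length removal 8, and leaving out 1 library 0 to 3. Of 9 other transport genes, no minimum left 4, no trend 0, and leaving out 1 library 5 to 7. The cause was not tested. Where a library is left out, the lone one is assumed to vary like the others. The replicate numbers are not stated to pair the libraries: deviations of vehicle 1 and octanoate 1 correlated at 0.126 over tested genes, and there are only 2 pairs. Counts under about 100, as of SLC25A41, SLC25A18, SLC25A21, SLC25A34 and UCP3, carried the widest errors.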
